A study of Drosophila melanogaster with 12 samples.

Results

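The genes described here handle zinc, copper and iron in the fruit fly Drosophila melanogaster: the metallothioneins MtnA, MtnB, MtnC and MtnD, the metal transporters Zip102B, ZnT35C and Mvl, the ferritin chains Fer1HCH and Fer2LCH, and the transferrin Tsf1. They were taken as every probe set (a group of short probes on the array read together as 1 signal) whose single gene symbol in the platform annotation is one of these names. This gave 12 probe sets for the 10 genes, of 11982 genes that have such a probe set. Tsf1 had 3 probe sets and every other gene had 1. A probe set was tested where it reached the 40th percentile of its array on at least 3 of the 12 arrays, and 11 of the 12 did so, covering all 10 genes. The one left out, the third for Tsf1, lay below that percentile on all 12 arrays.

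Transcript levels were measured on 12 Affymetrix arrays in a design that crossed stage (adult or larva) with genotype (SPS2 knockdown or wild type), with 3 arrays in each of 4 groups, each labelled as a biological replicate. Sps2 encodes selenophosphate synthetase 2, which makes the selenium donor used to build selenocysteine. All groups were raised on cornmeal and yeast food. The sources used here do not give how the knockdown was made, its driver, the wild-type line, or the sex, age and body part of the animals, so an effect of genetic background and an effect of the knockdown cannot be told apart. The deposited values are log2 MAS5 signals, and levels below are on that scale. Changes are knockdown minus wild type in log2 units from limma, with its standard error (SE), over 3 arrays in each group. A probe set is said to have risen or fallen only where its p, adjusted over all 12827 tested probe sets, was under 0.05.

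Metallothioneins are small cysteine-rich proteins that bind copper, zinc and cadmium, and their genes are switched on by the metal-responsive transcription factor MTF-1. ZIP transporters bring zinc into the cytosol and ZnT transporters move it out, into organelles or out of the cell. Ferritin stores iron, in insects largely within the secretory pathway, and transferrin carries iron in the hemolymph. In the fly, Malpighian tubules and parts of the midgut are known sites of zinc, copper and iron storage.

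The Sps2 transcript separated the genotypes at both stages, with the knockdown arrays lower. It read 6.82 to 7.11 against 9.78 to 9.84 in adults (log2 change -2.80, SE 0.12, limma adjusted p = 2.66e-08) and 7.11 to 7.56 against 9.49 to 9.70 in larvae (-2.31, SE 0.12, adjusted p = 1.37e-07). The adult markers measured, 5 of 6 (the yolk proteins Yp1, Yp2 and Yp3 and the male accessory gland genes Acp26Aa and SP), summed to a linear signal of 50547 to 58911 on the adult arrays and 225.3 to 522.6 on the larval arrays. Of the larval markers, 3 of 6 were measured (Fbp1, Sgs3 and Sgs4), and none passed the filter on low values. The median probe set of an array read 6.37 to 6.48 in adult knockdown, 6.69 to 6.77 in adult wild type, 6.03 to 6.16 in larval knockdown and 5.95 to 6.04 in larval wild type. Because the adult medians differed with genotype, centring each array on its median moved the median adult change of all tested probe sets from -0.04 to 0.24, and the results below name the calls this ended. The control transcripts' 3' minus 5' signal, a sign of RNA or cRNA length, was 2.44 ± 0.07 and 2.42 ± 0.07 (SD, n = 3) in adult knockdown and wild type, and 3.70 ± 0.06 and 3.51 ± 0.11 in larval knockdown and wild type; its part in the results was not tested.

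In adults, 5 of the 11 tested probe sets rose with the knockdown, 2 fell and 4 did not pass the test. Zip102B, MtnB, MtnD, MtnC and Mvl rose, and ZnT35C and MtnA fell, though neither adult fall was called with median centring (MtnA 0.0024). Over all tested probe sets, 13.6% rose and 15.4% fell in adults. In larvae, 4 rose (Zip102B, MtnB, MtnC and MtnD), 3 fell (ZnT35C, MtnA and Mvl) and 4 did not pass, where 15.0% of all tested probe sets rose and 10.7% fell. The median change of the 11 was 0.05 in adults and 0.09 in larvae, beside -0.04 and 0.04 over all tested probe sets, since rises and falls were mixed. The median size of change regardless of sign was 0.28 in adults, beside 0.29 over all, and 0.665 in larvae, beside 0.26 over all. The genes were chosen with earlier results of these data known, so the values over all tested probe sets are given as a description. The same 4 genes rose at both stages, as did 605 of all tested probe sets (4.72%), and 2 fell at both, as did 591 (4.61%). Mvl was called in opposite directions, as were 337 (2.63%). The 2 genotypes were fully apart for 9 of the 11 probe sets in adults and 7 in larvae, beside 58.2% and 35.4% of all tested probe sets.

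**Figure D1:**
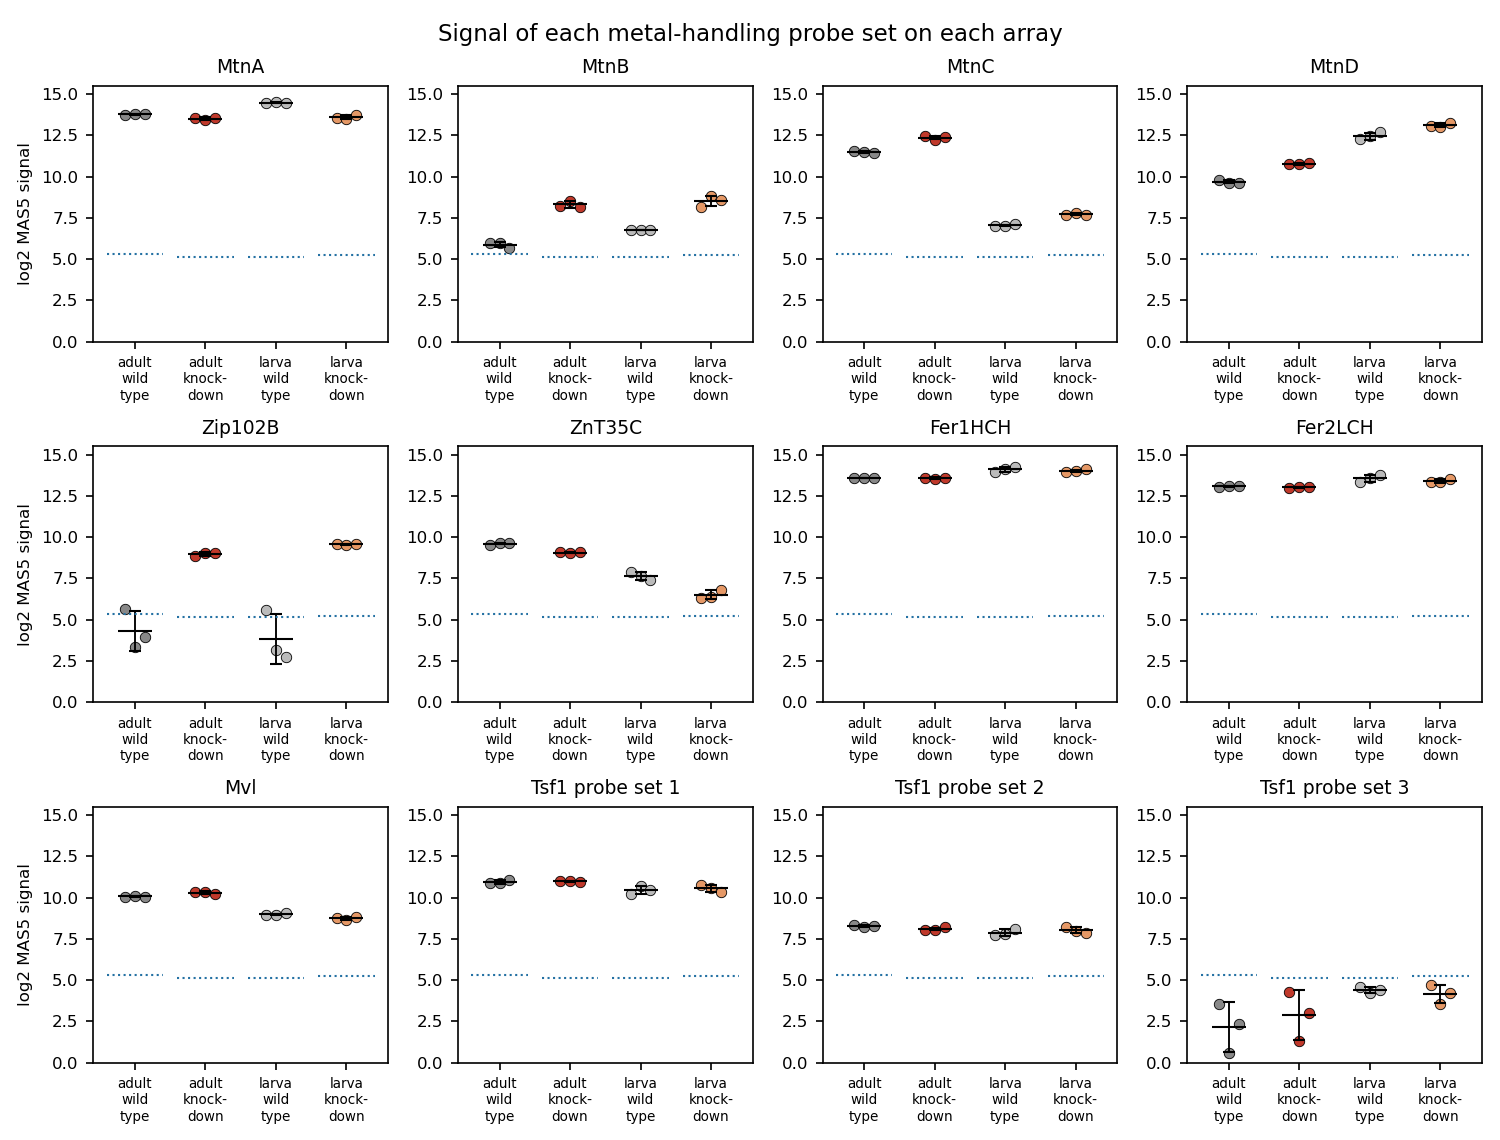
Log2 MAS5 signal (vertical axis) of the 12 probe sets on each of the 12 arrays. Points are arrays, lines and bars are the mean and SD of 3 arrays, and dotted lines mark the mean 40th percentile of a group's arrays. Zip102B lay near or below that percentile in wild type and above 8.8 on every knockdown array.

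**Figure D2:**
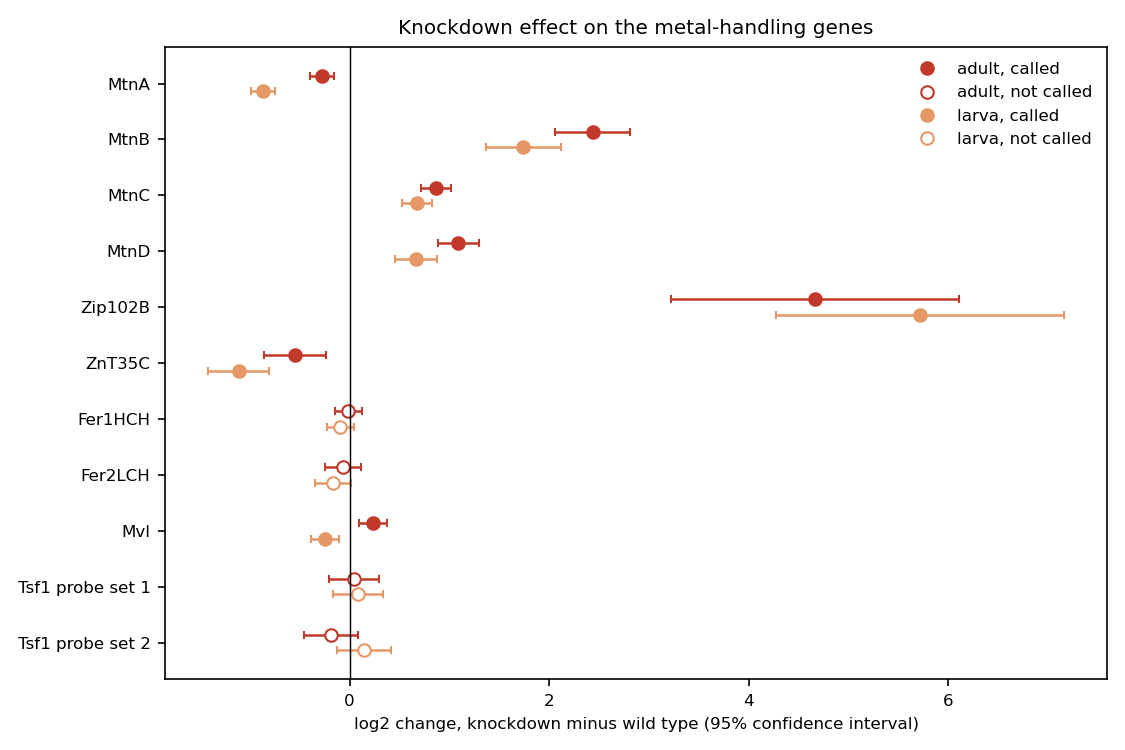
Log2 change (knockdown minus wild type) of each of the 11 tested probe sets in adults and in larvae, with bars for limma's 95% confidence interval. Zip102B and MtnB lie farthest above 0, and the ferritin and Tsf1 intervals include 0.

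Zip102B, a member of the ZIP family, showed the largest change among these genes at both stages. In adults it read 8.88, 9.07 and 9.02 on the knockdown arrays and 5.67, 3.34 and 3.95 on the wild-type arrays. In larvae it read 9.56, 9.54 and 9.59 with the knockdown and 5.59, 3.17 and 2.77 in wild type. All 6 knockdown arrays were above all 6 wild-type arrays, and at each stage only 1 of 3 wild-type arrays reached the 40th percentile of its signals (5.10 to 5.39 over the arrays). Taking each wild-type array at the higher of its own value and that percentile, Zip102B was at least 11.6-fold higher in adults (log2 change as fitted 4.67, SE 0.66, limma adjusted p = 0.00028) and at least 19.2-fold higher in larvae (5.72, SE 0.66, adjusted p = 6.17e-05). Zip102B passed the filter (3 of 12 arrays) through the knockdown arrays, all 6 of which reached the percentile. The wild-type arrays alone would not have met it. Both calls held in all 21 alternatives run, among them a fit with no filter. The fitted size moved with single wild-type arrays. It was 5.34 in adults and 6.59 in larvae without wild-type replicate 1, the highest wild-type array of each stage, and it was 4.17 in adults without the lowest (replicate 2) and 5.18 in larvae without the lowest (replicate 3). The adult and larval changes differed by -1.05 (95% interval -3.10 to 0.99, adjusted p = 0.464). Both knockdown groups differed in level, larvae above adults on every array, while the wild-type groups overlapped.

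MtnB showed the largest change of the metallothioneins. In adults it read 8.25, 8.54 and 8.17 with the knockdown and 5.97, 5.996 and 5.70 in wild type, and in larvae 8.17, 8.82 and 8.59 against 6.79, 6.80 and 6.78. Every knockdown array was above every wild-type array of either stage. The adult wild-type values were not far above the 40th percentiles of their arrays (5.30, 5.30 and 5.39), so the adult fold rests on a low signal. The rise was 5.41-fold in adults (log2 change 2.44, SE 0.17, limma adjusted p = 9.96e-07) and 3.35-fold in larvae (1.74, SE 0.17, adjusted p = 1.69e-05), and it ranked 130th and 379th of 12827 by size. With the knockdown, the adult and larval arrays overlapped, whereas in wild type MtnB was lower in adults on every array (-0.90, adjusted p = 0.000322). The adult rise exceeded the larval by 0.69 (SE 0.24), which did not pass the test (adjusted p = 0.0621).

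MtnC rose at both stages from very different levels. It read 12.46, 12.26 and 12.42 in adults with the knockdown and 11.59, 11.51 and 11.45 in wild type. In larvae it read 7.69, 7.79 and 7.68 against 7.01, 7.02 and 7.11. The 4 groups were apart from each other, in the order adult knockdown, adult wild type, larval knockdown, larval wild type. The rise was 1.82-fold in adults (log2 change 0.86, SE 0.07, limma adjusted p = 3.41e-06) and 1.60-fold in larvae (0.68, SE 0.07, adjusted p = 2.43e-05). The stage difference of 0.19 (95% interval -0.03 to 0.40) did not pass (adjusted p = 0.203).

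MtnD had the opposite stage order. It read 10.77, 10.75 and 10.85 in adults with the knockdown and 9.81, 9.65 and 9.64 in wild type. The larval values were 13.08, 13.04 and 13.27 against 12.26, 12.45 and 12.68. All 4 groups were apart, with larval knockdown highest and adult wild type lowest. The rise was 2.13-fold in adults (log2 change 1.09, SE 0.095, limma adjusted p = 5.89e-06) and 1.59-fold in larvae (0.665, SE 0.095, adjusted p = 0.000304). The adult rise was the greater by 0.43 (SE 0.13, adjusted p = 0.0416), a call that was lost in 11 of 20 alternative settings, among them leaving out any 1 of the 3 adult knockdown arrays (adjusted p = 0.0665 to 0.0838), adult wild-type replicate 2 or 3 (0.0899 and 0.0934), larval knockdown replicate 1 or 2 (0.0769 and 0.0844) and larval wild-type replicate 2 or 3 (0.0655 and 0.0688).

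MtnA moved the other way. It read 13.56, 13.42 and 13.58 in adults with the knockdown and 13.77, 13.82 and 13.80 in wild type. Larval arrays gave 13.57, 13.51 and 13.74 against 14.47, 14.50 and 14.45. Every wild-type array was above every knockdown array, and the knockdown arrays of the 2 stages overlapped. The larval fall was 1.83-fold (log2 change -0.87, SE 0.06, limma adjusted p = 6.42e-07) and stayed called in every alternative run. The adult fall was 1.21-fold (-0.28, SE 0.06, adjusted p = 0.00311), was -0.18 under quantile normalization (adjusted p = 0.0087), and was 0.0024 with each array centred on its median (adjusted p = 0.979). The adult and larval changes differed by 0.59 (SE 0.08, adjusted p = 0.000518), and this difference was called in all 20 alternatives run. The stage-difference contrast called 20.8% of all tested probe sets in either direction, and 3 of the 11 here (MtnA, MtnD and Mvl).

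**Figure D3:**
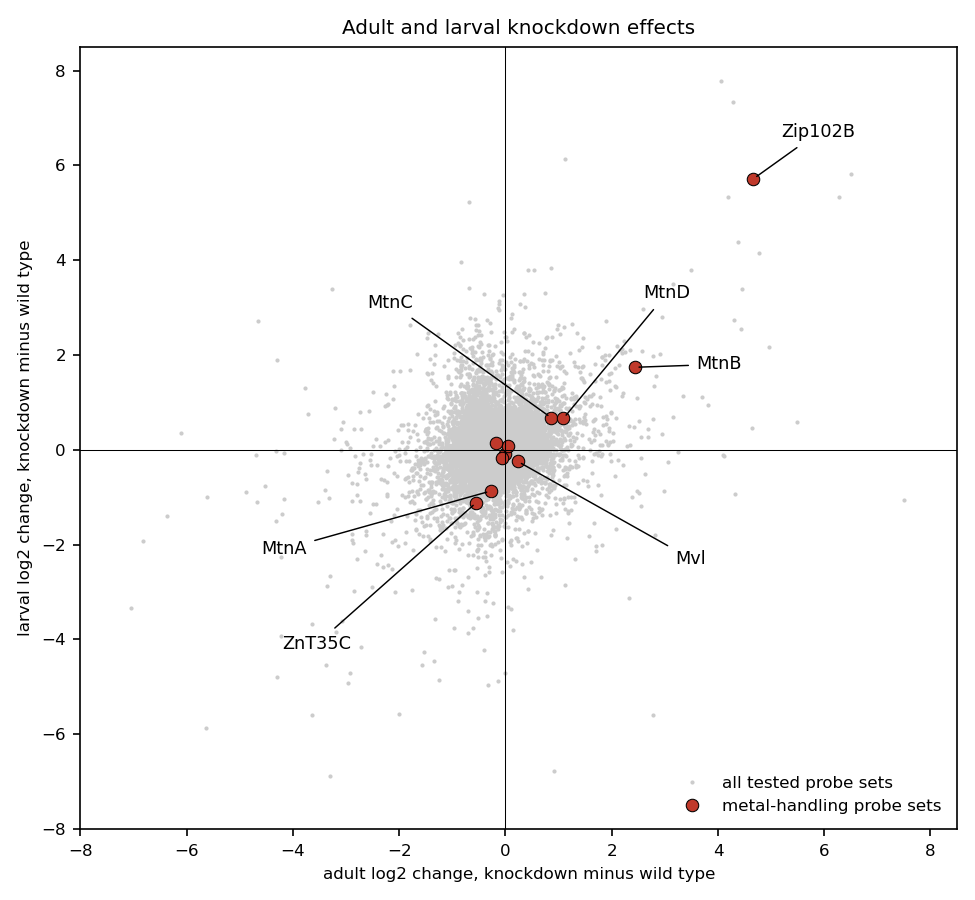
Larval against adult log2 change (knockdown minus wild type) for all 12827 tested probe sets (grey) and the 11 metal-handling probe sets (red). MtnB, MtnC, MtnD and Zip102B lie in the upper right, MtnA and ZnT35C in the lower left as deposited (the adult change of MtnA is 0.0024 with median centring), and Mvl in the lower right.

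ZnT35C, a zinc exporter known from the Malpighian tubule, fell at both stages. In adults it read 9.10, 9.03 and 9.08 with the knockdown and 9.56, 9.62 and 9.67 in wild type. Its larval values were 6.35, 6.38 and 6.82 against 7.86, 7.63 and 7.39. The 4 groups were apart, adults above larvae. The fall was 2.16-fold in larvae (log2 change -1.11, SE 0.14, limma adjusted p = 0.000128) and 1.46-fold in adults (-0.55, SE 0.14, adjusted p = 0.0123). With median centring the adult change was -0.27 (adjusted p = 0.148). The larval fall was called in all 21 alternatives run. Beside it, the tubule markers, of which 8 of 10 were measured, summed to a linear signal of 2214 to 2494 in adult knockdown and 4141 to 4365 in adult wild type, and to 5452 to 5966 and 7080 to 8322 in larvae. Of those 8 markers, 5 fell in adults and 3 in larvae, and none rose. Of all tested probe sets, 15.4% fell and 13.6% rose in adults, and 10.7% fell and 15.0% rose in larvae. Picot had the highest signal of the 8, so it weighs most in the sum. Its mean was 10.05 in adult knockdown and 11.13 in adult wild type, and 11.45 and 11.97 in larvae. In these samples fewer cells of a type and less RNA per cell cannot be told apart, and the part of the tubule signal in the ZnT35C result was not tested.

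Mvl (Malvolio), of the NRAMP family that carries divalent manganese and iron, changed in opposite directions at the 2 stages. In adults it read 10.34, 10.36 and 10.22 with the knockdown and 10.07, 10.10 and 10.06 in wild type. Larval levels were 8.76, 8.67 and 8.82 against 8.96, 8.97 and 9.05. The groups did not overlap at either stage. It rose 1.17-fold in adults (log2 change 0.23, SE 0.06, limma adjusted p = 0.0171) and fell 1.18-fold in larvae (-0.24, SE 0.06, adjusted p = 0.0144), a difference of 0.48 (SE 0.09, adjusted p = 0.00394). The adult call was lost without knockdown replicate 1 (adjusted p = 0.0653) or 2 (0.0774) or wild-type replicate 1 (0.0541) or 3 (0.0616). The larval call was lost with only the larval arrays in the fit (0.0969). The midgut markers, of which 7 of 11 were measured, summed to a linear signal of 44566 to 49855 in adult knockdown and 52313 to 54758 in adult wild type, and to overlapping ranges in larvae (57429 to 70928 and 61500 to 69685). Of these 7 markers, 4 were called in adults (1 higher, 3 lower) and 3 in larvae (2 higher, 1 lower). The shares called over all tested probe sets were 29% in adults and 25.6% in larvae. In adults alphaTry, betaTry and Jon65Aiii had the highest signals of the markers, so they weigh most in the sum. There alphaTry (-0.17, limma adjusted p = 0.547) and betaTry (0.22, adjusted p = 0.117) did not pass the test, and Jon65Aiii fell (-0.56, adjusted p = 0.000246). The part of the midgut markers in the Mvl result was not tested.

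The ferritin chains did not pass the test at either stage. Fer1HCH, the heavy chain that carries ferroxidase activity, read 13.61, 13.52 and 13.60 in adults with the knockdown and 13.58, 13.59 and 13.58 in wild type. In larvae it read 13.97, 14.01 and 14.11 against 13.97, 14.14 and 14.25, and the groups overlapped at both stages. Its change was -0.01 in adults (95% interval -0.14 to 0.12, limma adjusted p = 0.911) and -0.09 in larvae (-0.23 to 0.04, adjusted p = 0.304). Fer2LCH, the light chain, read 13.00, 13.02 and 13.07 in adults with the knockdown and 13.07, 13.13 and 13.10 in wild type, groups that just did not overlap. In larvae it read 13.325, 13.36 and 13.55 against 13.37, 13.58 and 13.77, which overlapped. Its change was -0.07 in adults (95% interval -0.25 to 0.11, adjusted p = 0.575) and -0.17 in larvae (-0.35 to 0.01, adjusted p = 0.17). Without larval wild-type replicate 1 both larval changes passed the test, at -0.17 for Fer1HCH (adjusted p = 0.0304) and -0.27 for Fer2LCH (adjusted p = 0.0152). With median centring the adult change of Fer1HCH was 0.27 (adjusted p = 0.0157). In the RefSeq gene table the 2 ferritin genes are next to each other with overlapping spans.

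Tsf1, the main iron carrier of the hemolymph, also did not pass at either stage in the 2 probe sets tested. The first read 11.001, 11.02 and 10.96 in adults with the knockdown and 10.89, 10.87 and 11.08 in wild type, and 10.76, 10.56 and 10.37 against 10.24, 10.72 and 10.48 in larvae. The second read 8.06, 8.06 and 8.20 against 8.35, 8.25 and 8.27 in adults, and 8.25, 7.98 and 7.87 against 7.74, 7.81 and 8.11 in larvae. The groups overlapped except for the second in adults, where wild type was above the knockdown on all arrays. The changes of the first were 0.05 in adults (95% interval -0.21 to 0.30, limma adjusted p = 0.799) and 0.09 in larvae (-0.17 to 0.34, adjusted p = 0.634). Those of the second were -0.18 (-0.46 to 0.09, adjusted p = 0.299) and 0.14 (-0.13 to 0.42, adjusted p = 0.441). With median centring the adult change of the first was 0.33 (adjusted p = 0.0344). The third probe set read 0.58 to 4.70 over the 12 arrays, all below the percentile.

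**Figure D4:**
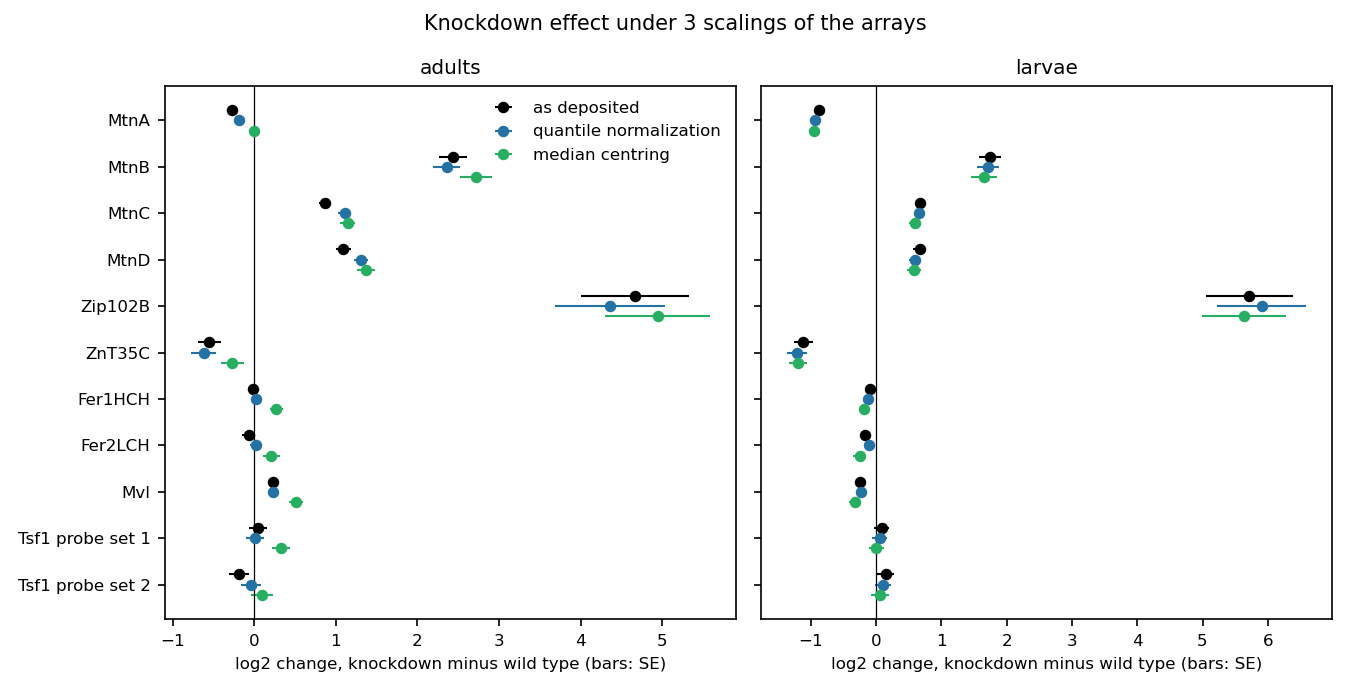
Log2 change (knockdown minus wild type) of each tested probe set as deposited, after quantile normalization and after centring each array on its median, with SE bars. Zip102B, MtnB, MtnC and MtnD stay above 0 at both stages under each scaling, and the adult change of MtnA moves from -0.28 to 0.0024 with median centring.

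Between the wild-type stages, 5 of the 11 probe sets were higher in adults, 5 were lower and 1, Zip102B, did not pass the test, where 53.3% of all tested probe sets were higher and 28.4% lower. MtnC was 22.2-fold higher in adults (log2 difference, adult minus larva, 4.47, limma adjusted p = 8.64e-14), and MtnD was 6.81-fold lower (-2.77, adjusted p = 4.88e-11). ZnT35C was 3.97-fold higher in adults (1.99, adjusted p = 3.52e-08) and Mvl was 2.12-fold higher (1.08, adjusted p = 5.93e-09). These sizes depended on the scaling, though not their direction or call: with median centring MtnC was 13.5-fold and ZnT35C 2.42-fold higher, Mvl 1.29-fold higher, and MtnD 11.2-fold lower. The lower MtnB level in adults was 1.87-fold as deposited and 3.06-fold with median centring. MtnA, at -0.68 as deposited (adjusted p = 1.6e-07), was at -0.0035 after quantile normalization. The smaller stage differences of Fer1HCH (-0.54), Fer2LCH (-0.48) and the Tsf1 probe sets (0.47 and 0.40) changed sign under another scaling, and the median of all tested probe sets was 0.51 as deposited, 0.09 after quantile normalization and -0.20 with median centring. The wild-type arrays are shared with the knockdown comparisons.

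Other genes of metal handling, taken from 4 lists, gave 42 tested genes, each read by its probe set with the highest mean. In adults 5 of these rose and 8 fell, and the larval counts were 4 and 8, with median changes of 0.0006 and -0.03. Over all tested probe sets 13.6% rose and 15.4% fell in adults, and 15.0% and 10.7% in larvae. Among 10 tested copper and metal-response genes, 3 were called in adults (1 higher, 2 lower) and 3 in larvae, all lower. MTF-1, the factor that switches metallothionein genes on, fell at both stages. In adults its level was 9.46 to 9.57 on knockdown arrays against 9.83 to 9.998 on wild-type arrays, and 9.62 to 9.81 against 10.32 to 10.63 in larvae, with no overlap. Its change was -0.72 in larvae (SE 0.09, limma adjusted p = 7.99e-05) and -0.41 in adults (SE 0.09, adjusted p = 0.00411), the latter -0.13 with median centring (adjusted p = 0.335). Sod3, a secreted copper and zinc superoxide dismutase, was called higher in adults (0.34, adjusted p = 0.0307) and lower in larvae (-0.32, adjusted p = 0.0458). But leaving out any 1 of the 6 adult arrays ended the adult call (adjusted p = 0.0619 to 0.0934), as did a fit with no variance trend (0.0606). The larval Sod3 call was lost in 13 settings. A second Sod3 probe set did not pass the test in adults (0.11, adjusted p = 0.846) or in larvae (0.49, adjusted p = 0.332). Scox, a copper chaperone of cytochrome oxidase, fell in larvae (-0.24, adjusted p = 0.019). The Scox call was lost in 5 settings, among them leaving out larval knockdown replicate 1 or 2 or wild-type replicate 1 (adjusted p = 0.0614 to 0.0648). Ctr1B, a copper importer, was called lower in adults (-1.15, adjusted p = 0.0454) with both groups' means below the 40th percentile, so no fold is given. The Ctr1B call was lost in 14 settings, among them median centring (adjusted p = 0.105).

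Of 13 tested zinc transporters, 1 rose and 4 fell in adults, and 4 fell in larvae with none rising. The shares of all tested probe sets were 13.6% rising and 15.4% falling in adults, and 15.0% and 10.7% in larvae. In adults ZnT41F fell (-0.67, SE 0.11, limma adjusted p = 0.000649), as did Zip89B (-0.91, SE 0.17, adjusted p = 0.00188), and ZnT49B rose (0.27, SE 0.07, adjusted p = 0.00945). ZnT77C fell in adults (-0.51, adjusted p = 0.0157) and in larvae (-0.58, adjusted p = 0.00829). The adult call of ZnT77C was lost with quantile normalization (adjusted p = 0.202), median centring (0.256) and without adult knockdown replicate 2 (0.0562) or 3 (0.0597). In larvae Catsup, a ZIP-family protein, fell (-0.33, SE 0.06, adjusted p = 0.00102), as did Zip88E (-0.41, SE 0.10, adjusted p = 0.00961). The larval fall of Zip89B (-0.52, adjusted p = 0.0418) was lost in 9 settings, among them leaving out adult knockdown replicate 3, adult wild-type replicate 3, any larval knockdown array, or larval wild-type replicate 1 or 2 (adjusted p = 0.0515 to 0.127).

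Among 13 tested iron genes, 3 were called in adults (1 higher, 2 lower) and 4 in larvae, all higher. For these and the heme genes below, the shares over all tested probe sets were 13.6% rising and 15.4% falling in adults. In larvae they were 15.0% and 10.7%. Frataxin (fh), a mitochondrial protein of iron-sulfur cluster assembly, rose in larvae (0.65, SE 0.12, limma adjusted p = 0.0015) and in adults (0.40, SE 0.12, adjusted p = 0.0222). The adult call was lost without knockdown replicate 2 or 3 or any 1 wild-type array (adjusted p = 0.0585 to 0.0847). Irp-1B, of the aconitase family of iron regulatory proteins, rose in larvae (0.60, SE 0.05, adjusted p = 3.24e-06), where it read 12.12 to 12.19 with the knockdown. In larvae bcn92, an iron-sulfur assembly factor, rose (0.32, adjusted p = 0.00253; 0.0598 with median centring), and Mco1, a multicopper oxidase, rose (0.68, adjusted p = 0.0173). The Mco1 call was lost in 7 settings, among them leaving out larval knockdown replicate 1 or 2 or wild-type replicate 1 or 2 (adjusted p = 0.0525 to 0.0573). In adults nemy, a cytochrome b561 protein, fell (-0.61, SE 0.08, adjusted p = 0.000157), and Mco4 fell (-0.71, adjusted p = 0.0103; 0.098 with median centring and 0.159 after quantile normalization). Of 6 tested heme synthesis genes, 2 rose in adults and 1 fell in larvae. Pbgs, porphobilinogen synthase, rose in adults (0.35, SE 0.08, adjusted p = 0.00679) and fell in larvae (-0.53, SE 0.08, adjusted p = 0.000549), and Coprox, coproporphyrinogen oxidase, rose in adults (0.34, SE 0.06, adjusted p = 0.00202).

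**Figure D5:**
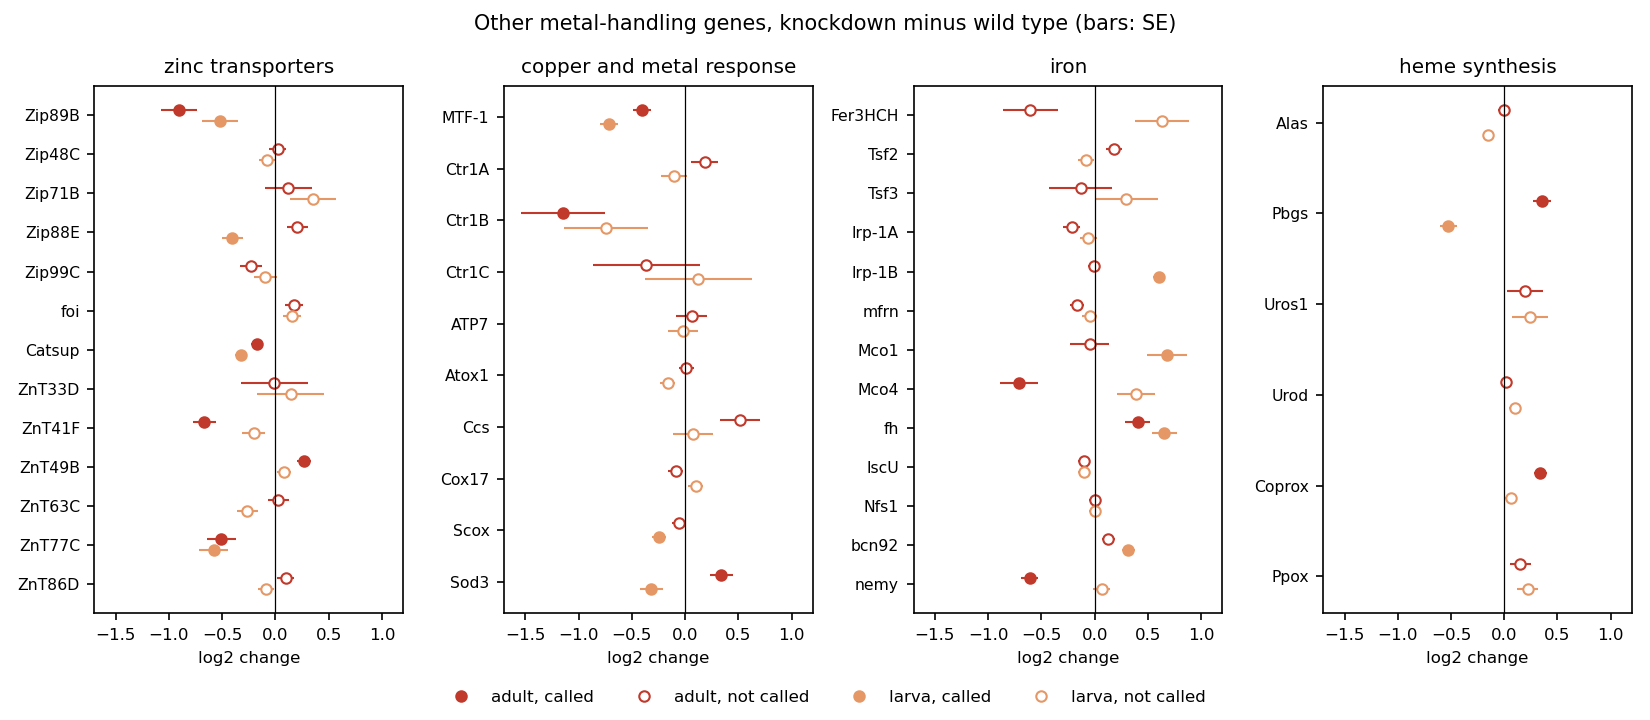
Log2 change (knockdown minus wild type, SE bars) of the 42 other tested metal-handling genes in adults and larvae, filled where the adjusted p was under 0.05. MTF-1 lies below 0 at both stages, and Pbgs lies above 0 in adults and below 0 in larvae.

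The probe sets of other genes whose 12 values followed those of Zip102B most closely, among 11203 candidates, were EMC3 (Pearson's r = 0.975), CG7768 (0.971) and CG10444 (0.961). For MtnA they were CG11438 (0.975), CG13658 (0.974) and CG7231 (0.969), and for Fer1HCH they were CG6908 (0.984), Spase25 (0.980) and RhoGDI (0.978). These correlations are over 12 arrays that share the same 4 groups and are given as a description. They do not reflect the size of a change. Zip102B rose by 4.67 in adults and 5.72 in larvae, whereas EMC3 rose by 0.20 and 0.24. The rises were 1.82 and 1.97 for CG7768 and 0.96 and 1.00 for CG10444.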

How the data were processed

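The authors deposited log2 signals made with MAS5, per the submitters' processing notes (version: not given in the sources used here). Their log2 scale was read from the values. All 12 arrays were used, with 0 columns left without a sample. Among 18952 probe sets, 183 controls were left out and 12827 passed the filter. The number of arrays, 3 per group, limits the precision. Each p-value weighs a change against the spread between arrays labelled as biological replicates, which limma estimates over the 4 groups together. The fit used limma 3.58.1 in R 4.3.3, with 4 group means, a variance trend and Benjamini-Hochberg adjustment over all tested probe sets. It was also run on simulated data with normally distributed noise, which checks the code and not the assumptions of the fit. Contrasts were knockdown minus wild type at each stage, their difference (adult minus larva), and adult minus larval wild type. Symbols came from the platform annotation (13647 probe sets with 1 symbol, 402 with several, 4720 with none). Of the former, 13544 matched the RefSeq table (Release 6 plus ISO1 MT), with 0 changes of symbol.

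The genes and lists were chosen with earlier results of these data known. Named are all probe sets of the 10 genes, Sps2, up to 4 called genes with the smallest adjusted p per list and stage, and the 3 closest probe sets of Zip102B, MtnA and Fer1HCH. Some entries of the lists, among them MtnE and MtnF, were not analysed here. Residuals of same-numbered arrays correlated at r = -0.09 to 0.02, so numbers were not treated as pairs. Alternatives were quantile and median scaling, other filters, a floor, no trend, array weights, single-stage fits, a replicate block and leaving out each array. Promoter and protein comparisons were not analysed here.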

Additional observations from a re-analysis of the deposited data

Results flagged for a closer look

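The adult and larval changes (knockdown minus wild type) differed by an interaction test for 3 of the genes. The same test called 20.8% of all tested probe sets. The difference (adult minus larva, log2) was 0.59 for MtnA (SE 0.08, limma adjusted p = 0.000518), which fell at both stages and more in larvae (the adult change was 0.0024 with median centring). It was 0.48 for Mvl (SE 0.09, adjusted p = 0.00394), which rose in adults and fell in larvae. That difference was called in all 20 alternatives, but the adult Mvl call was lost in 4 settings and the larval in 1. For MtnD, which rose at both stages and more in adults, the difference was 0.43 (SE 0.13, adjusted p = 0.0416). The MtnD difference was not called in 11 of 20 alternative settings. Groups of 3 arrays were not tested for outlying arrays.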

How the results depend on the processing

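The number of the 11 probe sets called was 6 to 7 in adults (7 as reported), 6 to 9 in larvae (7) and 9 to 11 between wild-type stages (10) over the alternatives. For the stage difference it was 2 to 8 (3 as reported), with 8 under median centring and 6 with values floored at the 40th percentile. With the replicate block the counts were 6 in adults, 8 in larvae and 3 for the difference; the adult call of ZnT35C was then lost (adjusted p = 0.0514) and Fer2LCH was called in larvae (0.037), and the numbers did not pair the arrays. The block could not be fitted for the wild-type stage contrast. Log2 changes called as reported or under the alternative had the opposite sign for MtnA 0.0024 and Fer1HCH 0.27 in adults with median centring, and, between wild-type stages, for Fer1HCH 0.27, Fer2LCH 0.37 and the second Tsf1 probe set -0.42 with quantile normalization, and the first Tsf1 probe set -0.24 and the second -0.31 with median centring. Changes of the ferritin chains, Tsf1 and Zip102B that were not called either way also turned, among them these under other scalings: in adults Fer2LCH was 0.21 and the second Tsf1 probe set 0.10 with median centring, and Fer1HCH and Fer2LCH were 0.02 with quantile normalization; the wild-type stage difference of Zip102B was -0.23 with median centring. Over all tested probe sets, 1742 rose and 1975 fell in adults as deposited, 4666 and 779 with median centring, and 2062 and 1738 with quantile normalization. In larvae the counts were 1918 and 1369, 1189 and 1690, and 1693 and 1417. Adult counts were 2756 and 3022 with array weights, 2903 and 3328 with adult arrays only, and 1098 and 1385 without adult knockdown replicate 2. For the stage difference 1009 were higher and 1656 lower as deposited, 3953 and 716 with median centring, and 1232 and 2577 with the floor. Between wild-type stages 6841 and 3645 became 4525 and 5773 with median centring. The stage-difference call was gained by MtnB under median centring (1.06, adjusted p = 0.0115), with the floor (0.04) and without larval knockdown replicate 2 (0.0289), and by ZnT35C in 5 settings. It was gained by MtnC under quantile normalization (0.012) and median centring (0.00504), by Fer1HCH (0.45, adjusted p = 0.00886) and Fer2LCH (0.465, adjusted p = 0.0248) under median centring, and by Zip102B with the floor (-0.73, adjusted p = 0.0183). The wild-type stage difference of Zip102B was 1.35 without larval replicate 1 (adjusted p = 0.0269). The cause was not tested. Signal near the 40th percentile limits the wild-type level of Zip102B and hence the size of its change. The adult wild-type level of MtnB was also not far above that percentile.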

Other observations

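MtnB and MtnD lie near MtnC in the RefSeq gene order, with 7 genes between MtnC and MtnB and 3 between MtnB and MtnD. Of the 10 genes between MtnC and MtnD other than MtnB, only 4 were tested, and MtnE was among those without a test. In adults 2 of the 4 were called lower and none higher. In larvae 2 were called higher and none lower. For comparison, the adult calls over all tested probe sets were 13.6% higher and 15.4% lower. The larval calls were 15.0% higher and 10.7% lower. With 4 genes tested, no local pattern is drawn from these counts. Tmlh fell in adults (log2 change -0.81, limma adjusted p = 0.00059) and rose in larvae (0.67, adjusted p = 0.00227), MFS9 fell in adults (-0.69, adjusted p = 0.00679), and CG46441 rose in larvae (0.88, adjusted p = 0.0123).

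The flanking genes were looked up after the values of Zip102B were seen. Of the 5 genes on each side of Zip102B, 8 were tested, and 1 rose and 3 fell in adults and 1 fell in larvae. The shares over all tested probe sets were 13.6% rising and 15.4% falling in adults, and 15.0% and 10.7% in larvae. Rnf11, the next gene after Zip102B in that order, fell at both stages, by the largest amount of the 8. In adults its level was 7.68 to 7.79 on knockdown arrays and 9.82 to 9.88 on wild-type arrays (log2 change -2.14, SE 0.12, limma adjusted p = 1.56e-07), and 7.02 to 7.56 against 9.72 to 9.89 in larvae (-2.51, SE 0.12, adjusted p = 5.74e-08). The groups did not overlap at either stage, opposite in direction to Zip102B. Whether the wild-type and knockdown lines differ at this place in the genome was not tested.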
